A study of Homo sapiens with 8 samples.

Results

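Interferon-stimulated genes are the genes that cells switch on when interferon reaches them, and 49 of them were followed here in an ALK-positive lung cancer cell line before and after it became resistant to ALK inhibitors. They were taken by symbol from a list of known members, each matched to its gene identifier in GENCODE release 44 (48 directly, and DDX58 through its newer symbol RIGI). Of the 49 genes, 46 had values among the 43869 genes of the deposited data, and IFI27, OAS2 and XAF1 were not analysed here. A level of at least 25 normalised reads, or 4.64 on the log2 scale, in 1 or more libraries was reached by 35 of the 46 genes and by 12701 of all genes.

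NCI-H3122 is a human lung adenocarcinoma line that depends on an EML4-ALK fusion, and each resistant line was derived from it by growth under 1 inhibitor. The 4 lines compared were treatment-naive H3122 cells, erCriz0 (maintained in 0.5 µM crizotinib), erAlec0 (maintained in 2 µM alectinib) and erLor0 (maintained in 2 µM lorlatinib). Per the paper, these resistant lines were derived by raising the dose gradually before they were kept at those doses. All were grown in the same serum-containing medium, the chromatin samples were labelled as kept in DMSO, and RNA was taken after a short drug holiday. Each line gave 1 RNA-seq library and 1 H3K27ac ChIP-seq library, so a difference between lines has no replicate check, no p-value can be given, and a line cannot be told apart from the 1 culture that stood for it.

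Type I and type III interferons bind receptors that activate the kinases JAK1 and TYK2, which phosphorylate STAT proteins. STAT2 and IRF9 are subunits of ISGF3, which binds the interferon-stimulated response element (ISRE) in front of antiviral genes, while gamma-activated sites (GAS) serve interferon gamma. Tumour cells can also express part of this set in the absence of infection. H3K27ac is a histone mark of active promoters and enhancers.

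Levels are rlog values, the log2 of normalised reads after a shrinkage that pulls genes with few reads toward their mean over the libraries, so the change of a low gene is understated. Changes are differences in rlog from naive cells, positive where the resistant line was higher, and a gene or peak was counted as up at a change of 1 or more and as down at −1 or less. All 3 changes of a gene share its naive library. The median level of all genes past the minimum lay between 8.09 and 8.14 in the 4 RNA libraries and that of all peaks between 4.94 and 5.07 in the 4 ChIP libraries, and read totals are unknown. In bulk libraries a larger share of cells that express a gene and more RNA per cell cannot be told apart. Epithelial markers were high in every line, with EPCAM, KRT8, KRT18, KRT19 and CDH1 at 11.38 or above and NKX2-1, a lung lineage factor, between 8.67 and 9.18. The blood markers PTPRC and MS4A1 were listed at 0 in all libraries, CD3E was at −1.72 or lower, and CD14 was between 4.31 and 4.53 with changes of at most 0.12. The fibroblast marker COL1A1 was between 9.49 and 10.08 with PDGFRB and DCN at 2.20 or lower, and of the endothelial markers CDH5 rose by 1.68 in erAlec0 and 1.54 in erLor0 with PECAM1 and VWF near 0. Their part in the changes below was not tested.

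RefSeq start-site sequences (assembly GRCh38.p14) were searched for the core letters of the ISRE, GAAA and GAAA with any 2 bases between them, on both strands (TTTC and TTTC on the reverse strand), in the 250 bases before and 50 bases after each start. The letters occurred in 1255 of 35116 such windows of all genes (3.57%) and in 31 of 53 windows of the members (58.5%), which covered 26 of the 39 members that have a window. The GAS letters, TTC and GAA with any 3 bases between them, occurred in 7.66% of all windows and in 28.3% of those of the members. Stretches of 60 bases, or less where the gene begins, are shown for genes that rose in erCriz0 and for ISG15, which did not pass the limit there, so that the element can be seen beside different responses. The capitals mark a single ISRE match per stretch, and each stretch reads 5′ to 3′ on the strand of its gene. Further matches within the stretches of IFI6, IFITM3 and ISG15 are not marked.
IFIT3, chr10:89327850-89327909, plus strand: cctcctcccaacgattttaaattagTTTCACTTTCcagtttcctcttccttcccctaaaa
IFI6, chr1:27672273-27672332, minus strand: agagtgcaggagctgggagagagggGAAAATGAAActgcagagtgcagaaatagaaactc
IFITM3, chr11:320861-320920, minus strand: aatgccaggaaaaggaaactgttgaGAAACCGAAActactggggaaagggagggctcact
SAMD9, chr7:93118081-93118140, minus strand: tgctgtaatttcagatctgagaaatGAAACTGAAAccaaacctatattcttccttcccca
IFI44, chr1:78649746-78649788, plus strand: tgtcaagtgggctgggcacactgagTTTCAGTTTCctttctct
ISG15, chr1:1013365-1013424, plus strand: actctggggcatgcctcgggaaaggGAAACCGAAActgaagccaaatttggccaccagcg

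Among members past the RNA minimum, the ISRE letters were present for 9 of 12 that were up in erCriz0 and for 9 of 17 that were not. The GAS letters were present for 2 of 12 and 8 of 17. Of the 12, IFIT3, IFI6, IFI44 and GBP1 reached the minimum in erCriz0 only, and this split was not repeated with the minimum in naive cells. The ISRE letters were present for 8 of 10 members below the minimum or not analysed (80.0%). The 2 windows of IFI16, and those of UBE2L6, SAMD9L, DDX58, HERC6 and STAT2, held no ISRE match. The same was true of IFI35, IRF1, IRF9, OAS1, SP110, CMPK2 and XAF1. A match is a description of the letters in these windows and was not tested as a binding site. OASL, TRIM22, USP18, IRF7, IFIT2, GBP2, MX2, DHX58, OAS2 and IFITM2 were not searched.

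RNA of the interferon-stimulated genes was higher in erCriz0 than in naive cells, and its median lay near the naive level in erAlec0 and erLor0. Over all 46 genes with values, 17 were up and none was down in erCriz0, where 0.818% of all 43869 genes were up and 0.481% down. In that line 44 of 46 lay above naive with a median change of 0.74, beside 31.8% of all genes and a median of 0.00. The exceptions were USP18, at −0.01, and CMPK2, at 0.00. In erAlec0, where the median was 0.03, 4 of the 46 were up and none was down, beside 0.720% of all genes up and 0.609% down. In erLor0, with a median of −0.01, none was up and 1 was down, beside 0.321% of all genes up and 0.219% down. These shares of all genes are lowered by genes with few or no reads. The minimum was reached by 12701 of the 43869 genes and by 35 of the 46 members. Of all genes past it, 47.9% lay above naive in erCriz0.

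Restricted to the 35 members past the minimum, 16 were up in erCriz0 (2.65% of all genes past the minimum), 4 were up in erAlec0 (2.46%) and 0 in erLor0 (1.10%). SAMD9 in erLor0 was the only member down in any line, where 1.65%, 2.07% and 0.740% of all genes past the minimum were down in erCriz0, erAlec0 and erLor0. Some of the 35 reached the minimum only in the line where they were high, so the count was also made over the 26 members that reached it in naive cells. Of those, 7 were up in erCriz0 (2.14% of all genes past that minimum, with 1.71% down), 2 were up in erAlec0 (2.19%, with 2.14% down) and 0 in erLor0 (1.02%, with 0.763% down). In erCriz0 25 of the 26 lay above naive, beside 47.1% of all genes past that minimum. The median change of the 26 was 0.62, and that of all genes past that minimum was −0.02. With the minimum asked of the mean over the 4 libraries, 29 members passed, of which 10 were up in erCriz0 (2.36% of all genes, with 1.62% down), 4 were up in erAlec0 (2.42%, with 2.05% down) and 0 in erLor0 (1.09%, with 0.722% down). Among the 26 members past the minimum in naive cells, the highest of the 4 levels was that of erCriz0 for 22 (84.6%, against 30.8% of all genes past that minimum) and that of erAlec0 for IRF7, ISG20, IFI35 and USP18.

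**Figure D1:**
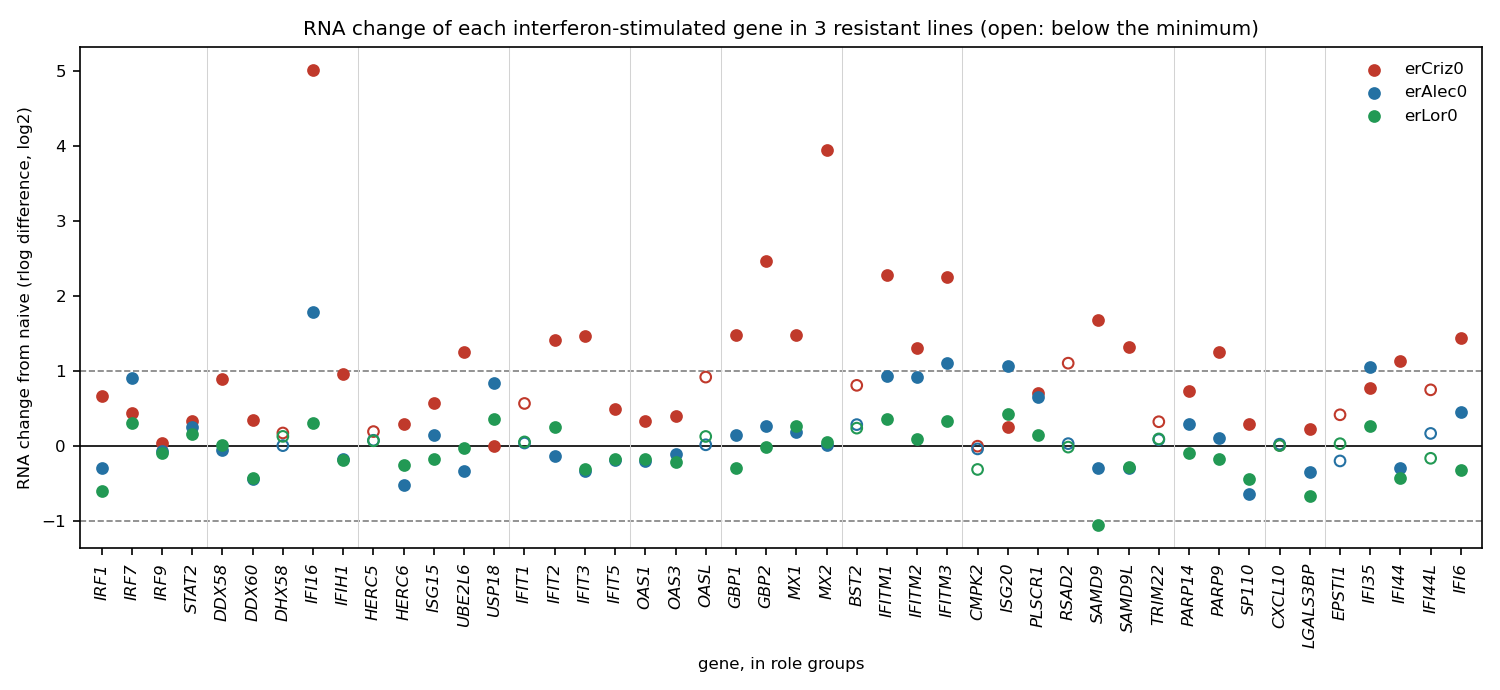
RNA change (rlog difference from naive, log2 scale) of each of the 46 members with values, in role groups, for erCriz0 (red), erAlec0 (blue) and erLor0 (green). Open circles are members below the minimum level, and dashed lines mark 1 and −1. The red points lie above 0 for 44 members, up to 5.02 for IFI16, and the blue and green points lie mostly between −1 and 1.

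The largest change was that of IFI16, a PYHIN-family protein that binds DNA in the nucleus and cytosol and feeds the STING pathway. IFI16 (ENSG00000163565.18, chr1:158999968-159055155, plus strand) had an RNA level of 4.44 in naive cells, 9.46 in erCriz0, 6.23 in erAlec0 and 4.75 in erLor0. Its level thus stood below the minimum of 4.64 in naive cells, highest by a wide margin in erCriz0, intermediate in erAlec0, and close to naive in erLor0. The cytosolic RNA sensors did not pass the limit. IFIH1, which encodes MDA5 and detects long double-stranded RNA, was at 6.87, 7.84, 6.71 and 6.69 in naive, erCriz0, erAlec0 and erLor0 cells, a change of 0.96 in erCriz0. DDX58, which encodes RIG-I and detects RNA ends with a triphosphate, differed from naive by 0.89, −0.06 and 0.02 in the 3 resistant lines, in the order erCriz0, erAlec0 and erLor0. DDX60, a helicase related to them, differed by 0.34, −0.44 and −0.43. DHX58, which encodes LGP2, was below the minimum in all lines.

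All 4 MX and GBP genes, which encode interferon-induced GTPases that act against viruses and intracellular microbes, were up in erCriz0, with a median change of 1.97, and none passed the limit in erAlec0 or erLor0. In naive cells only GBP2 reached the minimum, and MX2 and GBP1 reached it in erCriz0 only. No gene of this group was left out by the minimum. MX2 (ENSG00000183486.13, chr21:41361999-41409393, plus strand), a restriction factor of the nuclear entry of HIV-1, was at 3.63 in naive cells, 7.59 in erCriz0, 3.65 in erAlec0 and 3.69 in erLor0. Only the erCriz0 library stood apart, by 3.95, and the other 3 differed from each other by 0.06 at most. GBP2 was at 5.07, 7.54, 5.34 and 5.06 in naive, erCriz0, erAlec0 and erLor0 cells. MX1, which encodes the broad antiviral GTPase MxA, was at 4.41, 5.88, 4.59 and 4.67, and GBP1 was at 3.65, 5.12, 3.79 and 3.34 in the same order. In each of these the 3 other libraries lay below erCriz0 by more than 1. GBP1 has close paralogs among which reads could be split, as do the IFITM genes, IFIT1, IFIT3, HERC5, HERC6 and USP18, so their values are less certain.

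The 3 IFITM genes, membrane proteins that block the fusion of enveloped viruses, were up in erCriz0 and were also higher in erAlec0. IFITM1 was at 4.69 in naive cells, 6.97 in erCriz0, 5.63 in erAlec0 and 5.05 in erLor0. IFITM3 was at 3.76, 6.02, 4.86 and 4.09 and IFITM2 at 8.04, 9.35, 8.97 and 8.13 in the same order of lines. For all 3 genes the order of levels was erCriz0, erAlec0, erLor0 and naive, and in erAlec0 the change was 1.10 for IFITM3, 0.93 for IFITM1 and 0.92 for IFITM2. BST2, or tetherin, which holds budding virions at the cell surface, was below the minimum in all lines.

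**Figure D2:**
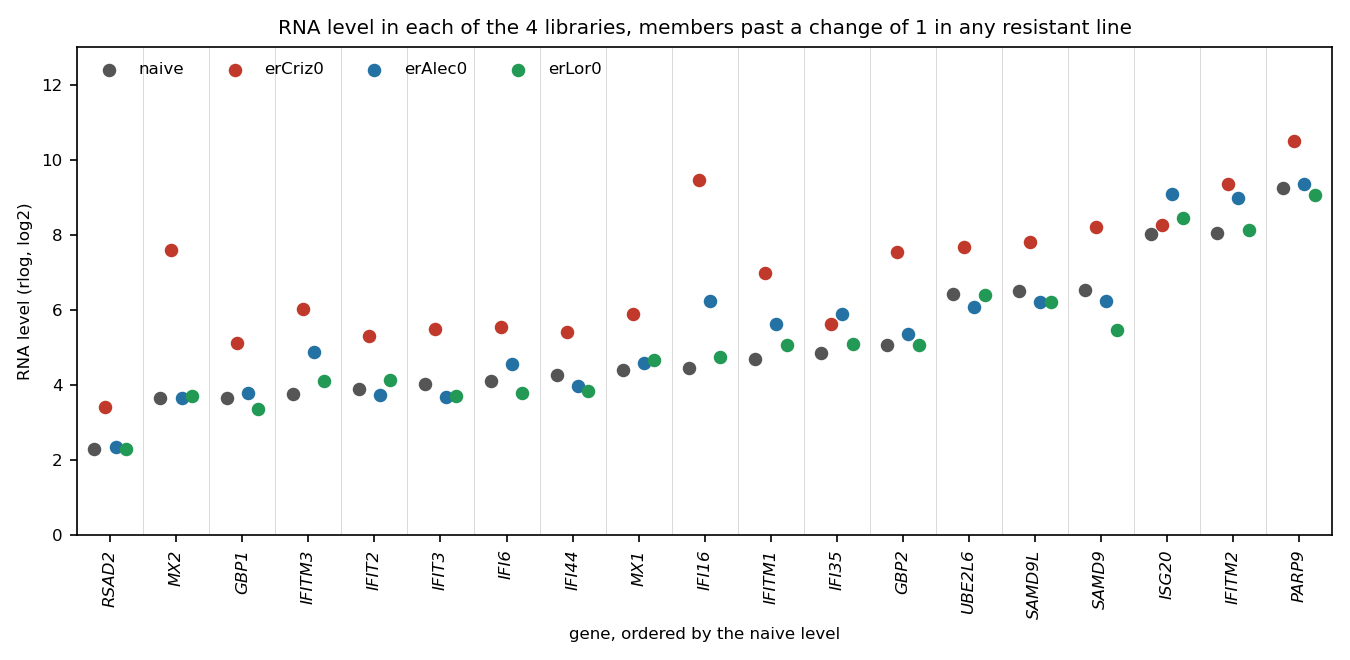
RNA level (rlog, log2 scale) in each of the 4 libraries for the 19 members with a change past 1 in any resistant line, ordered by the naive level. Each point is 1 library. The erCriz0 point is the highest for every gene apart from ISG20 and IFI35, where erAlec0 is higher.

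Among the IFIT proteins, which bind viral RNA that lacks host cap marks, IFIT3 was at 4.01 in naive cells, 5.48 in erCriz0, 3.68 in erAlec0 and 3.71 in erLor0. IFIT2 was at 3.88, 5.29, 3.74 and 4.13 in the same order. Both passed the limit in erCriz0 only, IFIT5 differed from naive by 0.49 there, and IFIT1 was below the minimum. OAS1 and OAS3, whose products make the 2′-5′ oligoadenylate that activates RNase L, stayed under the limit. OAS1 differed from naive by 0.33 in erCriz0, OAS3 by 0.40, and OASL, below the minimum, by 0.92.

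The ISG15 system attaches a ubiquitin-like protein to others. Its conjugating enzyme UBE2L6 was at 6.42, 7.68, 6.08 and 6.39 in naive, erCriz0, erAlec0 and erLor0 cells, up in erCriz0 alone. ISG15 itself differed from naive by 0.57, 0.14 and −0.18 in the 3 resistant lines, in the order used above. USP18, the enzyme that removes ISG15 and also dampens the type I receptor, went another way, with −0.01 in erCriz0 and 0.84 in erAlec0. HERC6 and HERC5 differed from naive by 0.29 and 0.19 in erCriz0, HERC5 from below the minimum.

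SAMD9 (ENSG00000205413.8, chr7:93099513-93118023, minus strand) and its neighbour SAMD9L encode antiviral proteins that also restrain growth. SAMD9 was at 6.53 in naive cells, 8.21 in erCriz0, 6.24 in erAlec0 and 5.46 in erLor0, which put it up in erCriz0 by 1.68 and down in erLor0 by −1.06. SAMD9L was at 6.49, 7.81, 6.19 and 6.21 in the same order. It shared the rise in erCriz0, and its change in erLor0 was −0.29. ISG20, a 3′ to 5′ exonuclease that degrades viral RNA, was instead highest in erAlec0, at 8.01, 8.26, 9.08 and 8.43. RSAD2, which encodes viperin, an enzyme that makes a chain-terminating nucleotide, rose by 1.10 in erCriz0 from 2.30 to 3.40 and stayed below the minimum.

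PARP9, which acts with DTX3L on chromatin in the interferon response, was at 9.23, 10.48, 9.34 and 9.06 in naive, erCriz0, erAlec0 and erLor0 cells. PARP14, which adds single ADP-ribose units, differed from naive by 0.74 in erCriz0, and SP110, a nuclear body protein, by 0.30. IFI6, a mitochondrial and endoplasmic reticulum protein with antiviral activity, was at 4.10, 5.53, 4.55 and 3.78, and IFI44, whose product restrains cell proliferation, at 4.26, 5.40, 3.96 and 3.84. IFI35 was at 4.84, 5.61, 5.88 and 5.10, up in erAlec0 and at 0.77 in erCriz0. The chemokine CXCL10, a standard readout of interferon gamma, was between −1.74 and −1.72 in all 4 lines and was thus far below the minimum, and LGALS3BP, a secreted glycoprotein, differed from naive by 0.22, −0.35 and −0.67.

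Of the 4 transcription factors of the set, none passed the limit in any line. STAT2 was at 8.85 in naive cells, 9.19 in erCriz0, 9.10 in erAlec0 and 9.01 in erLor0. IRF9, the DNA-binding subunit of ISGF3, was at 4.73, 4.77, 4.66 and 4.64 in the same order, a spread of less than 0.2 over the 4 libraries. IRF1 was at 8.17, 8.83, 7.88 and 7.57, higher than naive in erCriz0 and lower in the other lines, and IRF7, the amplifier of type I interferon, was at 8.13, 8.56, 9.03 and 8.44, highest in erAlec0.

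The rest of the pathway was read from a list of 35 genes, of which 26 had values and 20 passed the minimum. In erCriz0 1 of the 20 was up and 1 was down (2.65% and 1.65% of all genes past the minimum). In erAlec0 1 was up (2.46%), and in erLor0 none passed the limit (1.10% up and 0.740% down). The medians were 0.38, −0.08 and −0.05, beside −0.017, 0.002 and −0.004 for all genes past the minimum. Above naive lay 16, 9 and 7 of the 20 in erCriz0, erAlec0 and erLor0, beside 47.9%, 50.3% and 49.4% of all those genes. SOCS3, a feedback inhibitor of JAK signalling that is also induced through STAT3, was at 8.21 in naive cells, 10.53 in erCriz0, 9.45 in erAlec0 and 8.56 in erLor0. IFNLR1, the specific chain of the interferon lambda receptor, was at 6.64, 5.57, 6.34 and 6.73 in the same order, lowest in erCriz0. Of the ligands, IFNB1 and IFNK were listed at 0 in all 4 libraries, IFNE stayed between 2.74 and 3.11, below the minimum, and IFNA1, IFNG, IFNL1, IFNL2 and IFNL3 were not analysed here. In the order erCriz0, erAlec0, erLor0, the change was 0.95, 0.73 and 0.42 for JAK2 and 0.92, 0.21 and 0.07 for STING1, the adaptor downstream of DNA sensing. CGAS and SOCS1 were below the minimum, and AIM2, MNDA and PYHIN1, the PYHIN relatives beside IFI16, were not analysed here.

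**Figure D3:**
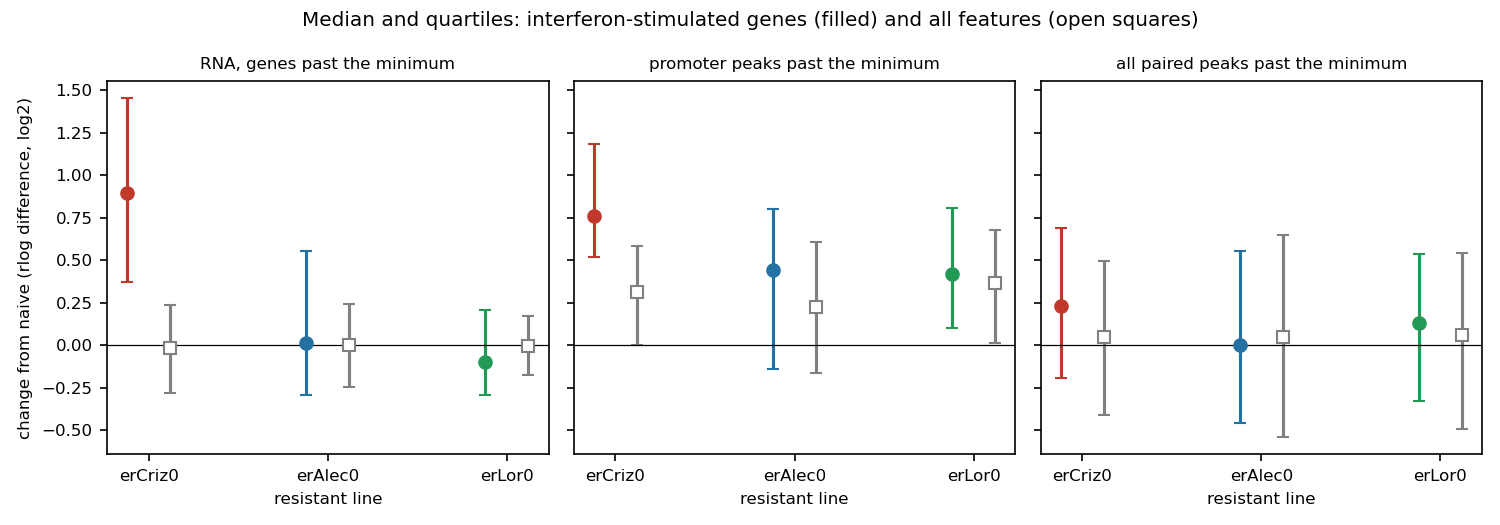
Median (point) and quartiles (bars) of the change from naive for interferon-stimulated genes (filled circles) and all features past the minimum (open squares) in the 3 resistant lines, for RNA, promoter peaks and all paired peaks. The vertical axis is the rlog difference (log2). In erCriz0 the RNA median was 0.89 for the members and −0.02 for all genes, and the promoter medians were 0.76 and 0.31.

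H3K27ac was read over the peaks that lie within 20 kb of a member. The 46 members had 252 distinct peaks, from 1 to 17 each, of which 179 reached 15 normalised reads (3.91 on the log2 scale) in 1 or more libraries, and 30 peaks were shared by 2 or more neighbouring members. Promoter peaks, defined by overlap with 1 kb on either side of the gene's 5′ end in GENCODE, numbered 44 for 40 members, and 36 of them passed the minimum. SP110, TRIM22, CXCL10, GBP2, IFITM2 and IFITM3 had none under this definition. For some members this 5′ end lies far from the RefSeq start searched for the ISRE. The ISG15 promoter peak changed by 0.64, 0.69 and 0.93 in erCriz0, erAlec0 and erLor0. The peak over its RefSeq window (chr1:1011532-1015814) changed by 0.31, −0.63 and −0.10. For IFITM3 a peak reaching into its RefSeq window (chr11:317568-320830) changed by 0.84, −0.37 and 0.29 in the same order.

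Promoter acetylation of the members was also higher in erCriz0. Of the 36 promoter peaks 13 were up and 0 were down in erCriz0, beside 6.68% of all 18752 promoter peaks up and 1.87% down, and 34 of the 36 (94.4%) lay above naive, where 75.0% of all promoter peaks did. The median was 0.76, and that of all promoter peaks was 0.31. In erAlec0 7 were up and 1 was down (10.4% and 4.22% of all promoter peaks), with a median of 0.44 beside 0.23. In erLor0 4 were up and 2 were down (10.0% and 3.20%), with a median of 0.42 beside 0.37. All promoter peaks together thus lay above naive in each resistant line, and the members' medians are to be read against that shift.

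Over all 179 paired peaks the difference was smaller. In erCriz0 25 were up and 3 were down, beside 8.24% and 5.71% of all 86432 peaks. In erAlec0 24 were up and 9 were down (15.5% and 9.99%), and in erLor0 11 were up and 10 were down (9.36% and 9.04%). The medians were 0.23, 0.00 and 0.13 in the 3 lines, next to 0.05, 0.05 and 0.06 for all peaks.

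The largest promoter gains in erCriz0 were those of MX2 and UBE2L6. The MX2 promoter peak (chr21:41361068-41364513, hg38) was at 5.76 in naive cells, 7.84 in erCriz0, 5.53 in erAlec0 and 5.52 in erLor0, a gain of 2.08 in the line where its RNA was up and of none in the others. The UBE2L6 promoter peak (chr11:57565053-57568723) was at 6.56, 8.60, 6.48 and 6.76 in the same order. For both genes the 3 lines without the RNA rise had promoter levels within 0.3 of each other. The peaks of IFIT3 followed its RNA. Its promoter peak (chr10:89326870-89329259) gained 1.38 in erCriz0, and peaks centred 4946 bp and 10244 bp inside the gene gained 1.77 and 1.29, while their changes in erAlec0 and erLor0 were between −0.72 and 0.33. The IFITM1 promoter lay in a broad peak of 10279 bp (chr11:305500-315778) that is within reach of 14 genes, and it gained 1.18 in erCriz0 and was below naive in the other lines, by −0.95 in erAlec0 and −0.62 in erLor0, where the RNA of all 3 IFITM genes was above naive. GBP2 had 1 peak (chr1:89125594-89129839), at 8.15, 9.12, 7.86 and 8.39, which lies inside the gene as annotated and over the start of a shorter transcript.

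**Figure D4:**
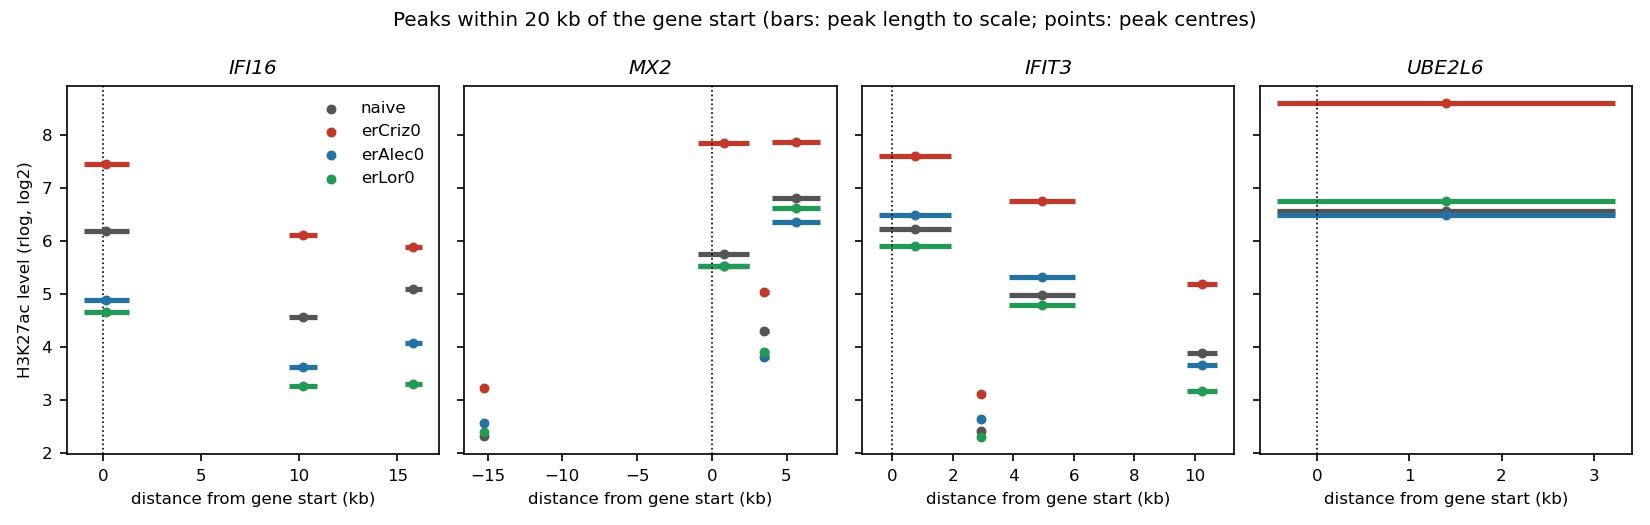
H3K27ac level (rlog, log2 scale) of each peak within 20 kb of the gene's annotated start for IFI16, MX2, IFIT3 and UBE2L6, by distance from that start (kb, positive into the gene). Bars show peak length to scale, points the centre, and colours the 4 libraries. The erCriz0 level is the highest at every peak shown, and at IFI16 the erAlec0 and erLor0 levels lie below naive.

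IFI16 parted RNA from acetylation. Its 3 peaks were the one at the annotated 5′ end (chr1:158998994-159001291), one centred 10177 bp into the gene (chr1:159009431-159010859), over 1 of the 2 RefSeq starts, and one centred 15810 bp into it (chr1:159015335-159016222). The first was at 6.19 in naive cells, 7.45 in erCriz0, 4.88 in erAlec0 and 4.67 in erLor0. Levels of the second were at 4.57, 6.11, 3.62 and 3.26 and the third at 5.09, 5.89, 4.09 and 3.31 in the same order. Every peak was above naive in erCriz0 and below it in erAlec0 and erLor0, although IFI16 RNA was up by 1.79 in erAlec0 and differed from naive by 0.30 in erLor0. Across the surrounding 5 Mb on either side, 486 other peaks had median changes of −0.02 (erCriz0), 0.20 (erAlec0) and 0.17 (erLor0). No nearer window was examined for peaks. For RNA, the 4 other genes past the minimum within 1 Mb had median changes of −0.23, −0.12 and 0.04 in the same order of lines.

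Of the 29 members past the RNA minimum with a promoter peak past its own, the 11 whose RNA was up in erCriz0 had a median promoter change of 1.18 there, and 10 of them were above naive. The 18 others had a median of 0.63, and all 18 were above naive. Among the 11, IFIT2, IFIT3, IFI6 and MX2 reached the RNA minimum in erCriz0 only. The split thus includes members that entered through that line, and it was not repeated with the minimum in naive cells. The promoter peak below naive was that at the GENCODE 5′ end of IFIT2, which differed by −0.48 while its RNA rose by 1.42. The peak centred 18586 bp into IFIT2, within 1 kb of another annotated transcript start of the gene, gained 1.23. Which start the cells use was not tested.

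**Figure D5:**
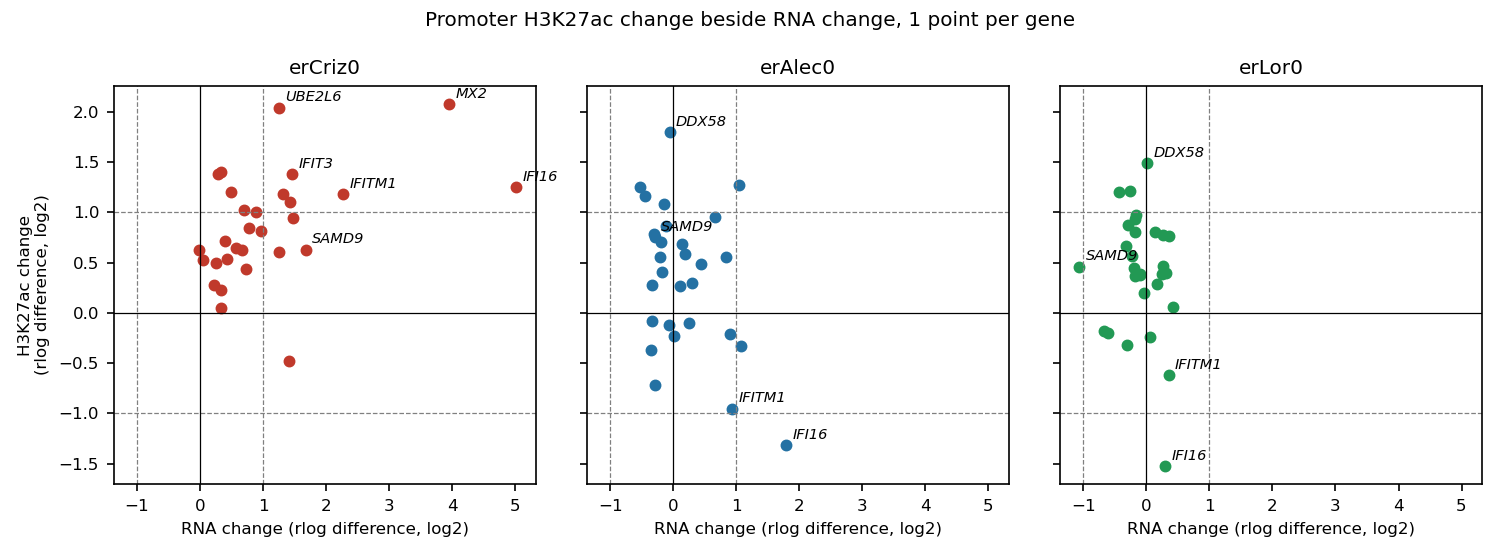
Promoter H3K27ac change (vertical) beside RNA change (horizontal), both as rlog differences from naive on the log2 scale, for the 29 members with both, with 1 panel per resistant line. Dashed lines mark 1 and −1. In erCriz0 all points but those of IFIT2 (1.42 and −0.48) and USP18 (RNA −0.01) lie in the upper right quadrant, with IFI16 farthest right at 5.02 and MX2 highest at 2.08. In erAlec0 IFI16 lies at the lower right and DDX58 at the top with an RNA change of −0.06.

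The promoter peaks of DDX58, HERC6 and DDX60 were up in all 3 resistant lines, which share the naive library, while their RNA passed the limit in none. They were 3 of the 36 members' promoter peaks (8.33%), and 0.709% of all promoter peaks were up in all 3 lines. The DDX58 promoter peak (chr9:32524621-32527137) was at 7.32 in naive cells, 8.32 in erCriz0, 9.11 in erAlec0 and 8.80 in erLor0, while its RNA differed from naive by 0.89, −0.06 and 0.02. The HERC6 promoter peak was at 6.47, 7.85, 7.72 and 7.68 and that of DDX60 at 5.65, 7.05, 6.81 and 6.85, while the RNA of both genes was below naive in erAlec0 and erLor0. The peak shared by RSAD2 and CMPK2, which encodes a mitochondrial nucleotide kinase, was at 6.11, 6.82, 7.22 and 7.31, past the limit in erAlec0 and erLor0, and neither gene reached the RNA minimum. A further pair of peaks, centred at −18576 and −17634 bp from the start of IFIT1, gained between 1.30 and 1.72 in each of the 3 lines, with IFIT1 below the minimum throughout.

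EPSTI1, a gene first described in epithelial cells facing stroma, had acetylation gains past the limit in erAlec0 and low RNA throughout. Peaks centred at 10178, −12517 and −14866 bp from its start rose by 2.84, 2.80 and 2.75 in erAlec0. In erLor0 the same peaks differed from naive by 0.98, 0.96 and 0.85, and in erCriz0 by −0.19, 0.10 and 0.02. A peak at chr13:42880709-42881386, past the far end of the gene, was down in erAlec0 (−1.14) and in erLor0 (−1.08). The 3 gains were the largest among the 179 paired peaks in any of the 3 lines. The EPSTI1 promoter peak was at 2.70 in naive cells, 3.49 in erCriz0, 4.08 in erAlec0 and 3.47 in erLor0. EPSTI1 RNA, at 3.15, 3.57, 2.95 and 3.18, was below the minimum in all 4 lines.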

How the data were processed

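The authors deposited log2 values (DESeq2 rlog) for H3K27ac peaks paired with genes at most 20 kb away, in 4 RNA-seq and 4 H3K27ac ChIP-seq libraries. Per the paper's methods, RNA reads were aligned to hg38 with HISAT2 and counted with HTSeq-count, and ChIP reads were aligned with BWA, called with MACS2, merged over samples and counted with featureCounts. The versions are not given in the sources used here. The deposited correlations of peak and gene with their p-values were not used.

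Changes, counts and medians were computed with Python 3.11.15, numpy 2.4.6 and pandas 2.3.3, and the scripts were tested on simulated data. The limit of 1 is the study's for genes and was applied to peaks as well, and the study's minimums of 25 and 15 reads were applied to the shrunken rlog values. No replicates exist, so no test was run and intervals cannot be given. Gene coordinates are those of the deposited data, and 5′ ends come from GENCODE 44. Every member with an RNA change past 1 in any line and the factors STAT2, IRF1, IRF7 and IRF9 were to be named with all values, and other members by counts and examples. Members and lists were chosen with earlier results of these data known. Alternatives were other limits, minimums, scalings, promoter definitions and peak distances, and members without close paralogs. The samples erCriz1, erLor1, the lorlatinib-treated sample and the pooled input were not analysed here. Values of 1 pathway gene and 1 marker are not reported here. Matplotlib 3.10.9 drew the figures.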

Additional observations from a re-analysis of the deposited data

Results flagged for a closer look

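These values passed the limit of 1 in opposite directions in lines that share the naive library, and the difference between lines was not tested, since each has 1 library. SAMD9 RNA changed by 1.68 in erCriz0 and by −1.06 in erLor0. The H3K27ac peak at the 5′ end of IFI16, starting at 158998994 on chromosome 1, gained 1.25 in erCriz0 and changed by −1.31 in erAlec0 and by −1.52 in erLor0. The IFI16 peak starting at 159009431 changed by 1.54 in erCriz0 and −1.31 in erLor0. A peak inside OAS1, starting at 112915198 on chromosome 12, changed by −1.04 in erCriz0 and gained 1.20 in erAlec0 and 1.60 in erLor0, while OAS1 RNA differed from naive by 0.33, −0.20 and −0.17.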

How the results depend on the processing

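Of 153 values recomputed under other settings, 116 stayed close to those reported (counts within 1.5 times, medians within 0.1), 37 moved and none reversed, although medians near 0 took either sign (erAlec0 RNA, 0.01, was −0.06 with the naive minimum). For RNA in erCriz0 the number up was 5 at a limit of 2, and 7 and 10 with the minimum asked of the naive library or of the mean (both chosen after seeing the data). The median was 0.62 and 0.70 there, 0.74 with no minimum and 0.75 without close paralogs. For RNA in erAlec0 9 were up and 1 was down at a 1.5-fold limit, 0 were up at a limit of 2 and 2 with the naive minimum, and for erLor0 3 were down at the 1.5-fold limit and 0 at a limit of 2. At the 1.5-fold limit 25, 15 and 14 promoter peaks were up in erCriz0, erAlec0 and erLor0, and 4 were down in erAlec0. The upper quartiles of all promoter peaks were 0.58, 0.60 and 0.68 in these lines, near or past that limit. Shares of all features are not given for the 1.5-fold limit, the limit of 2 or the other promoter and peak definitions. The member counts there cannot be set against the general shift. With any transcript start as promoter, erCriz0 had 20 of 63 peaks up and 1 down and erLor0 had 4 down, with medians of 0.63, 0.20 and 0.24 in the 3 lines, and the erAlec0 median was 0.30 with 2 kb on either side. Centring the libraries gave 2 promoter peaks and 16 paired peaks down in erAlec0. With no minimum 6 of 252 paired peaks were down in erCriz0. Within 5 kb 14 of 114 were up in erAlec0 and 6 of 114 in erLor0, beside 24 and 11 of the 179. Counts were compared as raw numbers, although these sets differ in size. Over the 20 peaks paired with exactly 1 gene, erCriz0 had 6 up and 0 down, erAlec0 5 and 2 (median 0.31) and erLor0 1 and 4 (median 0.36). No paired analysis was possible because each line gave 1 library, and no replicate could be left out. Depth is unknown, and rlog shrinkage understates changes of members near or below the minimum.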
